A study of Mus musculus with 64 samples.

Results

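The TAM receptors Axl and Mertk and their ligands Gas6 and Pros1 were followed in retinal microglia across age, sex and time after an intravitreal injection of an adeno-associated virus. The 4 genes were taken by symbol from 25239 genes in the count table, all 4 were in it, and all 4 passed the filter on low counts in every fit. The mice were Cx3cr1CreER:R26-tdTomato on C57BL/6J, in which tamoxifen eye drops switch on the red reporter tdTomato in cells that use the Cx3cr1 promoter, so the sort rests on that reporter and would also take other Cx3cr1-expressing cells. From each retina 600 tdTomato-high cells were collected and made into 1 RNA-seq library. Females and males aged 3, 9 or 18 months were left uninjected (naive) or sampled 12 days (D12) or 28 days (D28) after AAV2 null. This virus was a vector genome without a transgene, packaged in an AAV2 capsid and given at the same dose to every injected eye. Per the paper, the genome also carried a sequence that inhibits TLR9, a sensor of viral DNA. The part of that sequence in the changes given below was not tested. The design gives 18 groups of 2 to 4 libraries, 62 in all (19 naive, 22 at D12 and 21 at D28). Naive eyes received no injection, so in these libraries the virus and the injection itself cannot be told apart. Per the paper, PBS-injected eyes studied by flow cytometry lacked the changes in microglial markers, but no such eye is among the libraries.

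TAM receptors are receptor tyrosine kinases, named for Tyro3, Axl and Mertk. Their ligands, growth arrest-specific 6 (Gas6) and protein S (Pros1), bind phosphatidylserine on the surface of dying cells at one end and a TAM receptor at the other, and both need vitamin K-dependent carboxylation to do so. Mertk binds either ligand and is best known for the uptake of apoptotic cells and, in the retinal pigment epithelium, of shed photoreceptor outer segments, whereas Axl responds mainly to Gas6. In macrophages the receptors restrain inflammation, in part through the suppressors of cytokine signaling.

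In GRCm38 coordinates, Axl lies at chr7:25757273-25788705 on the minus strand, Mertk at chr2:128698956-128802894 on the plus strand, Gas6 at chr8:13465374-13494490 on the minus strand and Pros1 at chr16:62854307-62929346 on the plus strand. The 250 bases before each RefSeq transcription start are given below so that the promoters of the 2 receptors and the 2 ligands can be set side by side. They were chr7:25788734-25788983 (minus strand) for Axl, chr2:128698665-128698914 (plus) for Mertk, chr8:13494536-13494785 (minus) for Gas6 and chr16:62854057-62854306 (plus) for Pros1, from RefSeq on GRCm38.p6, each written 5′ to 3′ on the strand of its gene. Capitals mark matches, on either strand, to the GAS site TTCNNNGAA, the interferon-response core GAAANNGAAA, the AP-1 site TGANTCA or the GC box GGGCGG.
Axl promoter: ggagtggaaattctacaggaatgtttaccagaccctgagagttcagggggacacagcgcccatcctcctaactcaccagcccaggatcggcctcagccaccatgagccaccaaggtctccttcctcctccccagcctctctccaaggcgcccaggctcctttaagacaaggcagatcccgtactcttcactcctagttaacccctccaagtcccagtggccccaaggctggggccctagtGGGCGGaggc
Mertk promoter: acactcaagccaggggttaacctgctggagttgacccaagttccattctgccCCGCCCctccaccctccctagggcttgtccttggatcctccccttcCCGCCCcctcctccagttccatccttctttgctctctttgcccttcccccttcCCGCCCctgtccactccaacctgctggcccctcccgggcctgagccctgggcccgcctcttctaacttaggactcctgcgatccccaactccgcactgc
Gas6 promoter: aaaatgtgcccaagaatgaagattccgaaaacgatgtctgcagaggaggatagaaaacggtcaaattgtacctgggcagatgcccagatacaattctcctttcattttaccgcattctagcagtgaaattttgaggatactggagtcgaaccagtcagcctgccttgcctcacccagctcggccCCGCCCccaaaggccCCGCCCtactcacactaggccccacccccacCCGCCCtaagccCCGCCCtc
Pros1 promoter: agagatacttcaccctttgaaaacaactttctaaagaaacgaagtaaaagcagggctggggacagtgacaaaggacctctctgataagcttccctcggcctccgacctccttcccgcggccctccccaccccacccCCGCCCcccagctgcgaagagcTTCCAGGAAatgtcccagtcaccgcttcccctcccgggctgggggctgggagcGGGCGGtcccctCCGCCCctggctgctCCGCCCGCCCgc
The Axl window held 1 GC box, starting 10 bases before the transcription start, and no match to the other motifs. Mertk held 3 GC boxes, Gas6 held 4, and Pros1 held 5 and the only GAS-site match among these windows, which began 92 bases before the start. Of 32851 promoter windows of this length, 32.7% held a GC box, 7.02% the GAS site, 6.75% the AP-1 site and 2.98% the interferon-response core. These matches describe the letters of 1 window per gene and say nothing of which factor binds there.

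Libraries held 1468478 to 9836173 counts, and the members were counted well within that depth: Axl in 102 to 2891 reads per library, Mertk in 238 to 2701, Gas6 in 55 to 1140 and Pros1 in 297 to 7501. The summed level of the microglial marker list went from a median of 37845 CPM (counts scaled to a common library size) in naive libraries (31044 to 53879) to 16084 at D12 (8790 to 36518) and 26146 at D28 (17320 to 46384), with all 10 of its markers, among them P2ry12 and Tmem119, above 0 in every library. T cell markers were near 0 in naive libraries (median sum 1.28 CPM, 0 to 132) and summed to a median of 108 CPM at D12 (1.57 to 329) and 60.8 CPM at D28 (11.9 to 165). The border macrophage sum, in contrast, was highest in naive libraries, at a median of 181 CPM (6.53 to 461) against 5.88 CPM at D12 (0 to 75.0) and 6.38 CPM at D28 (0 to 96.3), with 3 of its 6 markers at a median of 0 after injection. Monocyte and dendritic cell markers had a median sum of 17.5 CPM in naive libraries (4.46 to 121), 63.4 CPM at D12 (9.97 to 1100.2) and 9.25 CPM at D28 (0.789 to 61.4). The largest sum outside microglia was that of photoreceptor markers, at a median of 1787 CPM in naive libraries (539 to 3223), 760 CPM at D12 (399.6 to 2628) and 1423 CPM at D28 (698 to 2528). That sum was pooled over the ages. Pros1, given below by age, was lower at D12 at 3 and 9 months and not at 18 months. Endothelial markers had median sums of 16.1, 23.6 and 52.0 CPM in naive, D12 and D28 libraries. Among them Flt1 had medians of 3.26, 7.51 and 39.8 CPM and Kdr of 7.41, 10.8 and 8.91 CPM. Pecam1 stood at 3.14, 2.56 and 1.77 CPM and Cdh5 at 0, 0.0602 and 0 CPM. Cldn5 had a median of 0 at each time point, so the higher sum at D28 did not extend to the whole list. The part of these other cells in the changes of Axl, Gas6 or Pros1 given below was not tested, and in sorted pools fewer cells of a type and less RNA per cell cannot be told apart. Collection day, which the authors removed from the counts, is described further with Pros1 and Gas6, but Axl differed with it as well. In uncorrected counts Axl had a median of 191.5 CPM on the first day and 103.9 CPM on the second. The medians were 625.9 and 253.7 CPM for Pros1, 78.13 and 49.99 CPM for Gas6 and 222.2 and 196.7 CPM for Mertk. These medians mix ages and time points and leave out 4 libraries of the second day, described below.

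Axl was the member that passed the test after AAV2 at every age. Its transcript was higher than in naive microglia at both time points and at each of the 3 ages, by 6.46-fold at 3 months, 5.49-fold at 9 months and 3.08-fold at 18 months at D12, and by 2.47-fold, 2.76-fold and 2.43-fold, in the same order, at D28. Across all ages naive libraries held 27.9 to 153 CPM of Axl (median 56.9, n = 19), D12 libraries 111 to 495 CPM (median 251, n = 22) and D28 libraries 85.0 to 293 CPM (median 137, n = 21). Mertk, in the same libraries, had medians of 225, 193 and 212 CPM.

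At 3 months the naive females held 56.9, 49.7, 58.9 and 67.9 CPM of Axl and the naive males 28.7, 55.2 and 43.4 CPM. At D12 the females held 331, 323, 495 and 170.3 CPM and the males 349, 405, 241 and 262 CPM, so that the lowest D12 library stood well above the highest naive one. D28 females held 164, 85.0, 138 and 99.9 CPM and D28 males 112, 134 and 120.3 CPM, which lay between, with no overlap with naive in either sex. The change, with the sexes averaged, was 2.69 on the log2 scale at D12 (SE 0.20, adjusted p = 2.49e-12 by edgeR's quasi-likelihood test with Benjamini-Hochberg adjustment over all genes) and 1.30 at D28 (SE 0.20, adjusted p = 2.38e-05). In that comparison 23.8% of 12002 genes were called at D12 and 6.32% at D28, at an adjusted p under 0.05; of the 4 members 2 were called at D12 (Axl, higher, and Pros1, lower) and 1 at D28 (Axl). D12 and D28 share their naive libraries, here and at the other ages. The share of all genes whose libraries do not overlap with naive was not counted, so overlap is given throughout as a description.

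At 9 months the naive libraries held 40.6, 50.2 and 62.7 CPM in females and 38.9 and 71.4 CPM in males. D12 females held 186, 359.7 and 374 CPM and D12 males 468, 112, 306 and 237 CPM. The D12 libraries spanned a wider range than at 3 months, with 1 male near the D28 level, yet again none overlapped with naive. D28 females held 209, 157, 132 and 100.5 CPM and D28 males 195, 122 and 107 CPM, also all above naive. The log2 change was 2.46 at D12 (SE 0.33, adjusted p = 1.43e-05) and 1.46 at D28 (SE 0.31, adjusted p = 0.00935), where 14.6% and 2.12% of 12364 genes were called, and 2 members (Axl and Pros1) and 1 member (Axl). The D28 call rested on 1 naive male: without replicate 1 of that group the change was 1.26 and its adjusted p 0.0730.

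At 18 months the groups came closer. Naive females held 153, 102 and 66.3 CPM and naive males 62.1, 27.9, 61.5 and 54.4 CPM. D12 females held only 111, 153, 203 and 209 CPM, whereas D12 males held 224, 186 and 491 CPM. The females at D12 thus overlapped with their naive group, 3 of 4 lying above its highest library, and the males did not overlap. At D28 females held 225, 293 and 137 CPM, with 2 of 3 above the highest naive female, and males 119, 151, 168 and 147 CPM, all above naive males. With the sexes averaged the log2 change was 1.62 at D12 (SE 0.26, adjusted p = 0.000217) and 1.28 at D28 (SE 0.26, adjusted p = 0.00494), beside 14.4% and 4.12% of 11907 genes called, and Axl was the 1 member called at each day. The highest naive female is a library that stood apart on the second component of the deviations within groups, in uncorrected counts, at 88.2 units from the center. The other naive females of its age lay at 44.3 and 43.9, which follows from centering the group on its own mean. The farthest library outside that group lay at 17.0. Without this naive female the log2 change at 18 months was 1.80 at D12 and 1.45 at D28. In the order given above, the D12 females held microglial marker sums of 36518, 31607, 15152 and 15319 CPM. Their T cell marker sums were 1.57, 10.5, 329 and 188 CPM. The first 2, those with the least Axl, lay within the naive range of the microglial sum, 31044 to 53879 CPM. D12 males held microglial sums of 14082, 12882 and 19220 CPM and T cell sums of 172, 198 and 262 CPM. The part of this difference in the Axl values was not tested.

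**Figure D1:**
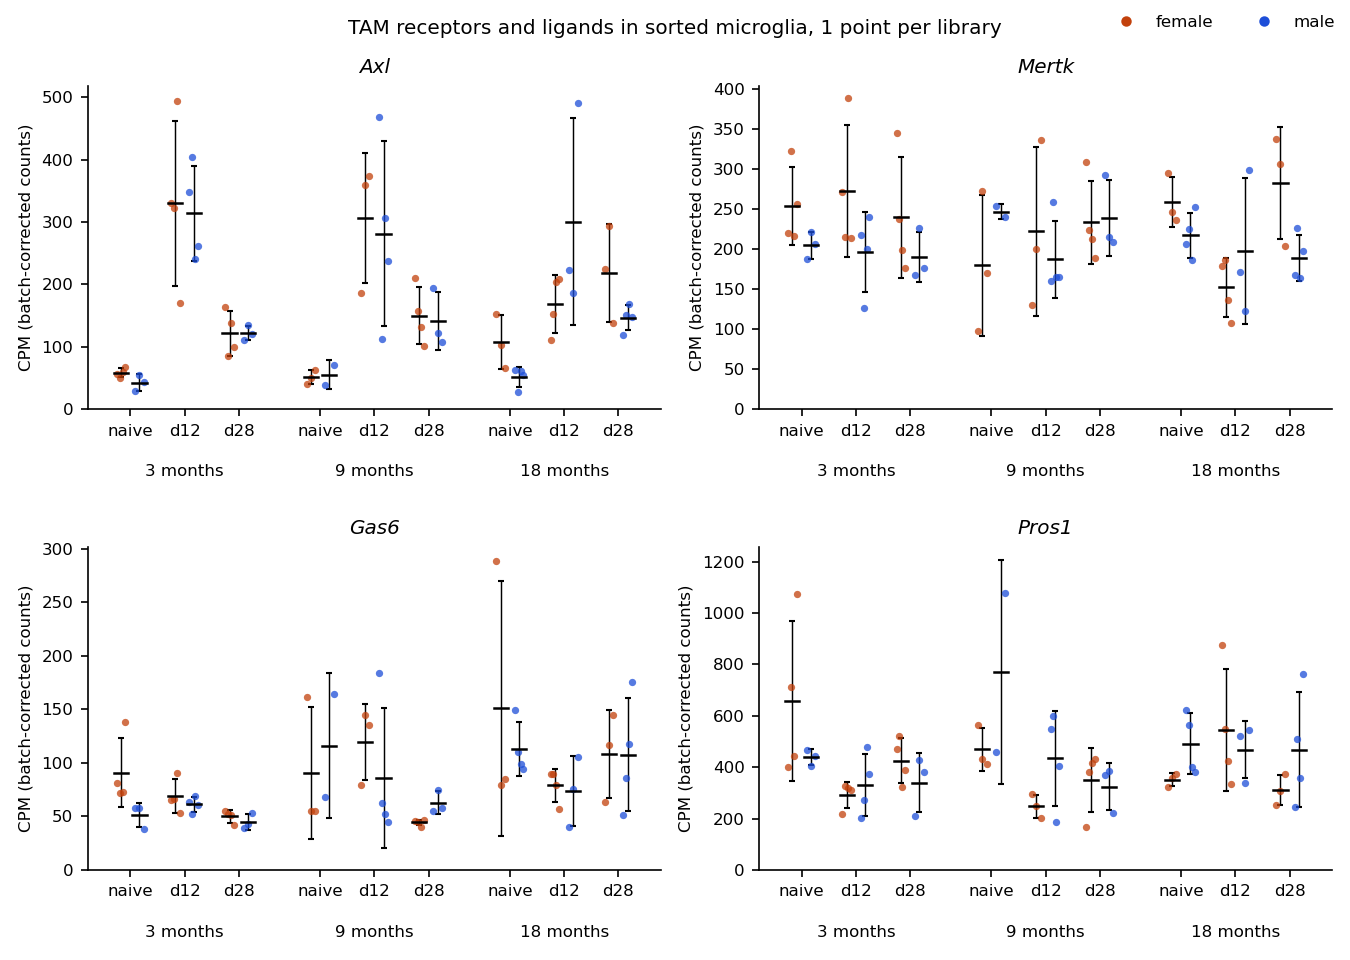
Expression of the 4 members in CPM of batch-corrected counts (y axis, linear from 0) by age and time point (x axis), with 1 point per library, females in orange and males in blue, and black bars for the mean and SD of each of 18 groups. Axl rises from 27.9-153 CPM in naive libraries to 111-495 CPM at D12 and 85.0-293 CPM at D28, while Mertk has medians of 225, 193 and 212 CPM.

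Within each collection day the direction held for Axl at every age. In uncorrected counts of the first collection day the log2 difference from naive at D12 was 2.47, 2.13 and 1.06 at 3, 9 and 18 months, and of the second 2.699, 2.72 and 2.13. At D28 the values were 1.19, 1.94 and 1.10 (the first day) and 1.31, 1.17 and 1.59 (the second), from 2 to 5 libraries a group.

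Comparing each sex with its own naive group, and testing against a log2 change of 1 as a minimum, Axl passed at D12 in 4 of 6 groups and at D28 in 0 of 6. The log2 changes at D12 were 2.49 in 3-month females (SE 0.28, adjusted p = 0.000206), 2.89 in 3-month males (SE 0.25, adjusted p = 3.39e-06), 2.61 in 9-month females (SE 0.35, adjusted p = 0.00329) and 2.58 in 18-month males (SE 0.33, adjusted p = 0.000986) by edgeR's test against that minimum. The other D12 groups did not pass, the 9-month males at 2.37 (SE 0.54, adjusted p = 0.147), which have 2 naive libraries, and the 18-month females at 0.68 (SE 0.36, adjusted p = 1). Without replicate 2 of the D12 males, the one at 112 CPM, the 9-month male change was 2.63 and its adjusted p 0.0195. Without the naive female that stood apart, the 18-month female change was 1.01. At D28 the changes in females were 1.06, 1.55 and 1.04 at 3, 9 and 18 months and in males 1.54, 1.38 and 1.53, so that each estimate exceeded 1 without passing a test against 1. Of all genes, the share called at D12 was 2.36% in 3-month females, 3.65% in 3-month males, 2.57% in 9-month females, 0.765% in 9-month males, 0% in 18-month females and 4.04% in 18-month males. At D28 it was 0.378%, 0.647%, 0.452%, 0.129%, 0% and 0.588% in the same order. No other member was called in these comparisons, and a plain quasi-likelihood test with a log2 change over 1, without a test of that minimum, called 10 of the 48 member tests in place of 4.

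The difference between the sexes at 18 months was itself tested. The male change in Axl at D12 exceeded the female change by 1.90 on the log2 scale (SE 0.50), which did not pass after adjustment over all genes (adjusted p = 0.601, edgeR). It was 1.56 without the naive female that stood apart and 1.34 without the D12 male at 491 CPM. The female change includes the D12 females with microglial marker sums in the naive range. At 3 and 9 months the corresponding difference was 0.40 (SE 0.37) and -0.23 (SE 0.60). Among 24 sex-by-day tests of the members 0 were called by edgeR or by DESeq2, with 1 at an unadjusted p under 0.05, the smallest adjusted p being 0.543. Among all genes the share called was 0.0417%, 0.00809% and 0% at D12 at 3, 9 and 18 months, and 0.00833%, 0% and 0% at D28.

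Mertk passed no comparison with naive in the corrected counts of all 62 libraries. At 3 months naive libraries held 187 to 322 CPM (median 219.8, n = 7), D12 libraries 126 to 389 CPM (median 216, n = 8) and D28 libraries 168 to 345 CPM (median 199, n = 7). At 9 months the ranges were 97.0 to 273, 130 to 337 and 189 to 309 CPM. Over the 6 comparisons with naive the log2 change lay between -0.43 and 0.18, and the 95% intervals between -0.84 and 0.75, so that a change as large as that of Axl lay outside them. The value farthest from 0 was that of 18-month microglia at D12, where naive females held 294, 246 and 236 CPM and D12 females 179, 186, 137 and 107 CPM with no overlap, and naive males 206, 225, 186 and 252 CPM beside D12 males at 171, 123 and 299 CPM, which did overlap. The log2 change there was -0.43 (SE 0.19, unadjusted 95% interval -0.84 to -0.03, adjusted p = 0.137, edgeR), and without the D12 male at 299 CPM it was -0.65 (adjusted p = 0.0170). That library is also 1 of 4 that lay apart from their labelled collection day, described below.

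The balance of the receptors therefore moved with Axl. The log2 ratio of Axl to Mertk within a library averaged -1.98 ± 0.56 in naive microglia (SD, n = 19), 0.42 ± 0.65 at D12 (n = 22) and -0.64 ± 0.32 at D28 (n = 21). Naive libraries ranged from -3.01 to -0.94, D28 libraries from -1.48 to 0.04, and D12 libraries from -1.20 to 1.69. Per kilobase of RefSeq exon, which allows levels of different genes to be compared, Axl had a median of 13.3 CPM per kb in naive microglia against 52.3 for Mertk, 58.7 against 44.8 at D12 and 32.0 against 49.4 at D28. The per-kb ranges of the receptors overlapped at each time point, in naive libraries only between the lowest Mertk value (22.55) and the highest Axl value (35.8).

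**Figure D2:**
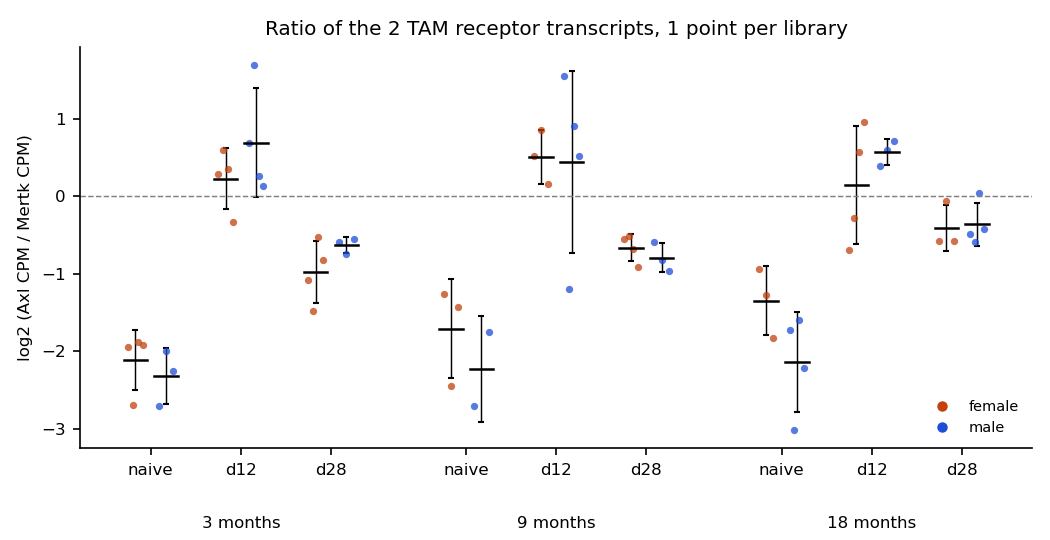
Log2 ratio of Axl to Mertk CPM (y axis) by age and time point (x axis), 1 point per library, females orange and males blue, with the mean and SD of each group in black and a dashed line at equal CPM. Naive libraries lie between -3.01 and -0.94, D12 libraries average 0.42 and D28 libraries average -0.64.

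Tyro3, the remaining TAM receptor, was at 0 counts in 52 of 62 libraries and at 3 counts or fewer in 60, with a highest value of 1.96 CPM, and was not tested. A count of 3 equals 0.361 to 2.12 CPM in these libraries, so levels below that could not be seen.

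Of the ligands, Pros1 was the more abundant, at a median of 134 CPM per kb in naive microglia, 102 at D12 and 116 at D28, against 31.7, 26.5 and 20.9 CPM per kb for Gas6. In naive libraries their ranges met only where the highest Gas6 value (113 CPM per kb) exceeded the lowest Pros1 value (98.0).

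Pros1 was lower at D12 in 3- and 9-month microglia and not at 18 months. At 3 months naive females held 399, 710.2, 444 and 1075 CPM and naive males 465, 405 and 445 CPM, whereas D12 females held 216, 326, 317 and 311 CPM and D12 males 203, 270.5, 479.5 and 373 CPM. All but 1 of the 8 D12 libraries, a male, lay below the lowest naive library. The log2 change was -0.79 (SE 0.20, adjusted p = 0.00322, edgeR). At 9 months naive females held 566, 432 and 410.4 CPM and naive males 461 and 1078 CPM, and at D12 females held 294, 248 and 202 CPM and males 548, 601, 185 and 403 CPM. Here the D12 females lay below every naive female, and the males overlapped. The log2 change at 9 months was -0.88 (SE 0.29, adjusted p = 0.0444). At 18 months the change was 0.30 (SE 0.24, adjusted p = 0.448), with naive libraries at 324 to 621 CPM (median 381, n = 7) and D12 libraries at 334 to 874 CPM (median 521, n = 7). The highest of these D12 libraries, at 874 and 550 CPM, were the females with microglial marker sums in the naive range. The other D12 females held 423 and 334 CPM of Pros1 and the D12 males 521, 339 and 545 CPM. The part of those females in the 18-month value was not tested. D28 values were -0.49, -0.82 and -0.11 at 3, 9 and 18 months, with adjusted p = 0.189, 0.153 and 0.885, and did not pass.

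The 2 highest Pros1 values in the naive groups came from libraries that stood apart. In the uncorrected counts of all 64 libraries the leading component of the deviations within groups, which held 41.3% of their variance, followed collection day, and Pros1 followed it closely: libraries of the first collection day held 318 to 980.4 CPM (median 626, n = 29) and 31 libraries of the second held 123 to 319 CPM (median 254). The other 4 libraries labelled with the second day lay at 3.91 to 16.6 on that component, within the span of the first day (-7.72 to 56.1) and outside that of the other libraries of the second (-50.6 to -0.21), and held 434 to 1007 CPM of Pros1 before correction. The correction, made by label, raised them further. They are 1 of the 4 naive 3-month females (1075 CPM after correction), 1 of the 2 naive 9-month males (1078 CPM), 1 D12 male at 18 months (545 CPM) and 1 D28 male at 18 months (763 CPM). In an analysis added after seeing the data, leaving out these 4 gave a log2 change in Pros1 at D12 of -0.62 at 3 months (adjusted p = 0.00922), which still passed, and of -0.49 at 9 months (adjusted p = 0.398), which did not. The 9-month call was also lost without 12 other single libraries. Within the second collection day the D12 difference was -0.93 at 3 months and -1.34 at 9 months with these libraries and -0.50 and -0.75 without them, and within the first day it was -0.49 and -0.26.

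**Figure D3:**
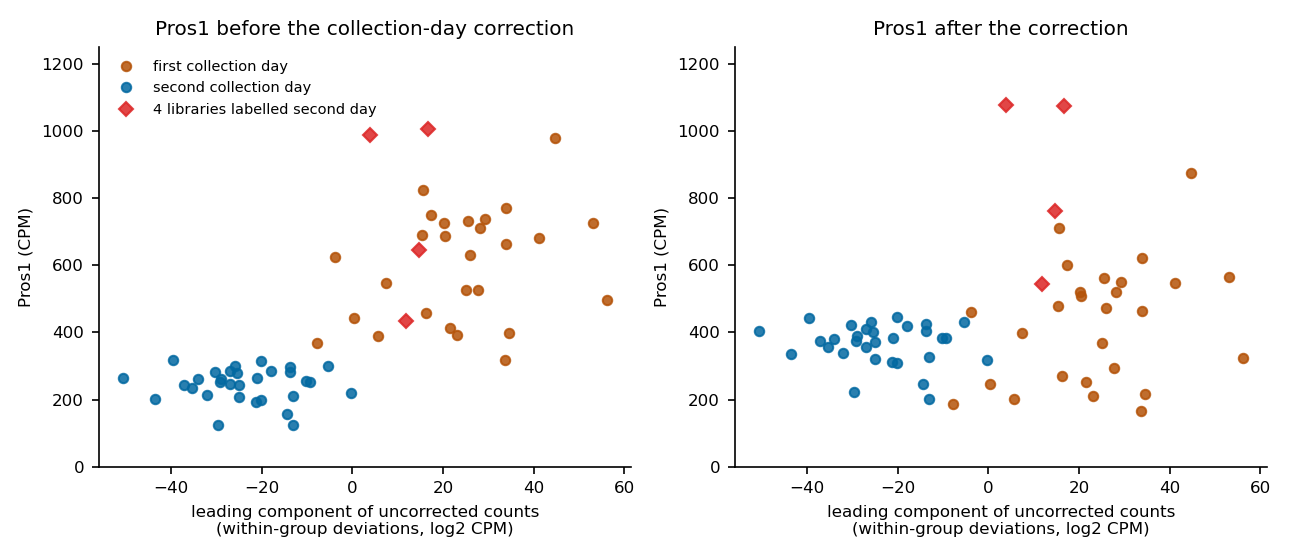
Pros1 CPM (y axis, linear from 0) against the leading component of the uncorrected counts (x axis, in units of log2 CPM deviations), before (left) and after (right) the correction for collection day, with 1 point for each of 62 libraries, the first collection day in brown, the second in blue and 4 libraries labelled second day as red diamonds. Before correction the blue libraries lie at 123-319 CPM and the red ones at 434-1007 CPM, and after it 2 of the red ones are the highest of all, at 1075 and 1078 CPM.

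The age difference in the Pros1 change was tested directly. At D12 the change from naive at 18 months exceeded that at 3 months by 1.06 on the log2 scale (SE 0.35, adjusted p = 0.197), and for Axl it fell short of it by 1.09, at -1.09 (SE 0.35, adjusted p = 0.195). Neither passed the threshold of 0.1 (edgeR, all libraries in 1 fit). Both estimates include the 18-month D12 females with microglial marker sums in the naive range, which were not left out together. Without the 4 libraries the Pros1 difference was 0.85 (adjusted p = 0.242) and the Axl difference -1.37 (adjusted p = 0.09), and without the D12 male at 491 CPM alone the Axl difference was -1.33 (adjusted p = 0.0724). Of 16 age-by-day tests of the members 0 were called by edgeR and 2 by DESeq2, with 2 at an unadjusted p under 0.05. The DESeq2 calls were these same differences in Axl (-1.12, adjusted p = 0.0975) and Pros1 (1.05, adjusted p = 0.0994). With no filter on low counts edgeR called both as well (adjusted p = 0.0174 for Axl and 0.0205 for Pros1). Among all genes 0.133% were called for 18 minus 3 months at D12, 0.0368% for 9 minus 3 months at D12, and 0% for either age at D28.

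With edgeR and the filter on low counts, Gas6 passed no comparison with naive in the corrected counts of all 62 libraries, and passed 1 comparison between ages. DESeq2 called it against naive at D28 at 3 months (-0.52, adjusted p = 0.0450). Without that filter edgeR called it at D28 at 9 months (-0.94, adjusted p = 0.0153). Against naive the log2 changes at D12 were -0.07, -0.03 and -0.76 at 3, 9 and 18 months, with adjusted p = 0.808, 0.972 and 0.103, and at D28 -0.51, -0.95 and -0.26, with adjusted p = 0.0782, 0.153 and 0.763 (edgeR). Each estimate lay below 0, but those at D12 at 3 and 9 months were 0.06 and 0.38 without the 4 libraries above. The 95% intervals, which are not adjusted for the number of genes, reached from -1.68 to 0.70. They lay below 0 at D28 at 3 months (-0.89 to -0.14) and 9 months (-1.68 to -0.22) and at D12 at 18 months (-1.42 to -0.10). The other intervals included 0. At 18 months at D12 the value was -0.93 without the 4 libraries, which passed (adjusted p = 0.0476), and -0.33 without the naive female that stood apart (adjusted p = 0.455). At 9 months at D28 it was -0.56 without replicate 2 of the naive males (adjusted p = 0.785), which is 1 of the 4, and -0.59 without replicate 1 of the naive females (adjusted p = 0.411). At D28, 18-month libraries held more Gas6 than 3-month ones. The 3-month females held 55.2, 51.9, 50.9 and 41.7 CPM and males 38.8, 42.6 and 53.3 CPM, whereas the 18-month females held 63.1, 117 and 144 CPM and the males 51.1, 85.8, 117 and 175 CPM. All but 1 of the 18-month libraries, a male, lay above every 3-month library. The log2 difference was 1.18 (SE 0.20, adjusted p = 0.00641), beside 0.211% of 11832 genes called at a threshold of 0.1. The highest of these libraries, the male at 175 CPM, is 1 of the 4 libraries above, and its time-point label gives D12 where its title gives D28. Without it the difference was 1.01 (adjusted p = 0.00513). Within the second collection day, in uncorrected counts, the difference was 1.35 with this library and 1.24 without it, and within the first day it was 0.49. In 1 fit over all libraries it was 1.18 and did not pass (adjusted p = 0.203). In females alone it was 1.11 (SE 0.28, adjusted p = 0.156) and in males 1.25 (SE 0.29, adjusted p = 0.487), and with only the 2 groups compared in the fit, an alternative added after seeing the data, the female difference passed (1.11, adjusted p = 0.0324) and the male difference did not (1.26, adjusted p = 0.986).

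In naive microglia Gas6 stood at 38.3 to 138 CPM at 3 months (median 71.7, n = 7), 54.8 to 164 CPM at 9 months (median 68.0, n = 5) and 79.5 to 288 CPM at 18 months (median 99.2, n = 7). The difference of 18 from 3 months was 0.92 (SE 0.32, adjusted p = 0.9999 over all genes), and at D12 it was 0.25 (SE 0.26, adjusted p = 0.740). The naive library at 288 CPM is the 18-month female that stood apart and held the most Axl of any naive library.

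None of the other age comparisons was called for a member. The log2 difference of 18 from 3 months in Axl was 0.56 in naive microglia, -0.49 at D12 and 0.55 at D28, with SEs of 0.24, 0.29 and 0.19, and in Pros1 it was -0.39, 0.71 and -0.0001 with SEs of 0.22, 0.25 and 0.23. At D28 the Axl difference was 0.84 in females (SE 0.26, adjusted p = 0.286, edgeR) and 0.26 in males (SE 0.26, adjusted p = 0.966), and the male minus female difference was -0.59 (SE 0.37, adjusted p = 0.866). The paper, using DESeq2 at an adjusted p under 0.1, lists Axl among the genes higher in old than in young females at D28. Which libraries its fit held is not stated, so the difference between the calls cannot be traced here. For Mertk the differences with the sexes averaged were 0.04, -0.40 and 0.11. Among all genes 0% were called for 9 against 3 months in naive libraries, 0.0651% for 18 against 3 months there, 1.64% and 1.15% at D12 for 9 and for 18 months, and 0% for 9 months at D28. Within 1 sex, comparing 18 with 3 months called 0.00852% of genes in females and as many in males at D12, and 0.152% in females and 0.00845% in males at D28. In these 16 member tests edgeR called 0 and DESeq2 2, both for Gas6 at D28, with 6 at an unadjusted p under 0.05. The male minus female age difference called 0% of genes at D12 and 0% at D28, and for the members 0 of 8 tests had an unadjusted p under 0.05.

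**Figure D4:**
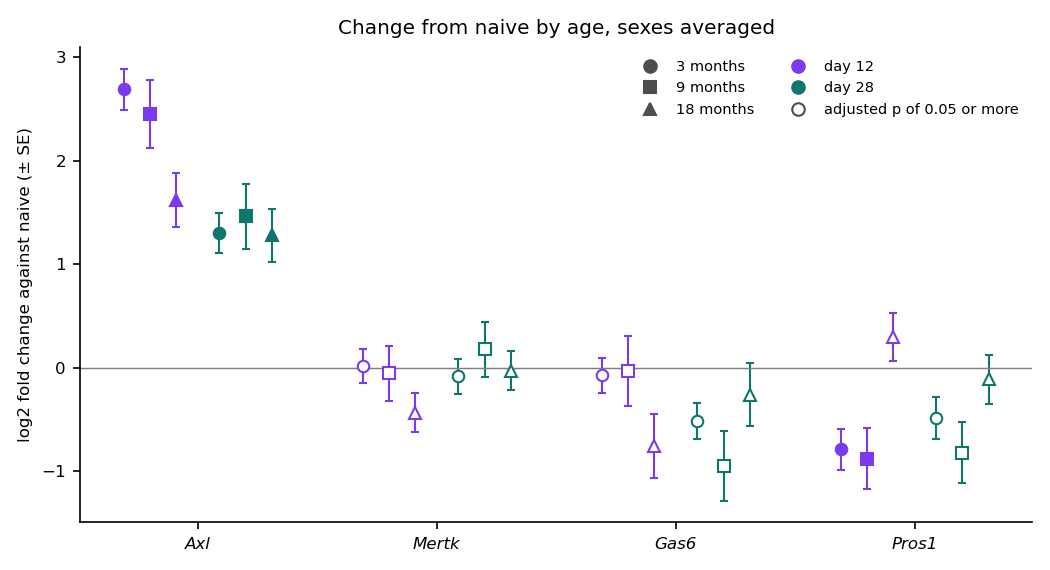
Log2 fold change against naive (y axis, points with SE bars) for each member (x axis), with the sexes averaged, D12 in purple, D28 in green, 3 months as circles, 9 months as squares and 18 months as triangles. Filled symbols passed an adjusted p of 0.05, which holds for Axl in all 6 comparisons and for Pros1 at D12 at 3 and 9 months (-0.79 and -0.88).

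Among 23 other genes of the TAM pathway, which hold the enzymes that carboxylate the ligands, further Mertk ligands such as Lgals3 and Tulp1, the proteases that shed the receptors and the downstream signaling and engulfment machinery, 21 were measured well enough to test. At D12 6 rose and 3 fell at 3 months, 4 rose and 2 fell at 9 months, and 5 rose and 2 fell at 18 months, where 23.8%, 14.6% and 14.4% of all genes were called. The list's median log2 change was 0.21, 0.09 and -0.06 at these ages, and that of all genes tested -0.02, 0.04 and 0.04. Among the genes that rose at all 3 ages were the suppressors of cytokine signaling Socs1 (1.32, 3.604 and 3.03) and Socs3 (1.89, 3.89 and 2.30). Elmo1, part of the complex that activates Rac during engulfment, fell at all 3 ages (-1.34, -1.47 and -1.12). Its partner Dock1 fell at 3 and 18 months (-0.83 and -1.71) and stood at -1.27 at 9 months without passing. Lgals3 rose at 3 and 18 months at D12 (4.12 and 2.90) and at D28 (3.30 and 1.97). At 9 months it did not pass (1.09 at D12 and -0.32 at D28). Tulp1 fell at 9 months at D12 (-1.21) and did not pass at 3 and 18 months (-0.49 and -0.70). Adam10 and Adam17, the proteases that shed TAM receptors from the cell surface, were not called at any age, with log2 changes of -0.06 to 0.12 and of 0.15 to 0.37 at D12. Ggcx and Vkorc1, which carry out and sustain the vitamin K-dependent carboxylation of the ligands, passed in 1 comparison each: Ggcx fell at 3 months at D12 (-0.90), and Vkorc1 rose at 3 months at D28 (0.58). At 9 and 18 months Vkorc1 stood at -0.60 and -0.56 at D12 and at 0.61 and 0.26 at D28. By D28 3 genes had risen and 1 had fallen at 3 months, 1 and 0 at 9 months, and 2 and 1 at 18 months, beside 6.32%, 2.12% and 4.12% of all genes called.

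A second list held 21 other genes of phosphatidylserine recognition, of which 16 were tested at 3 months and 17 at 9 and 18 months. At D12 5 rose and 2 fell at 3 months, 2 rose and 2 fell at 9 months, and 3 rose and 4 fell at 18 months, beside the same 23.8%, 14.6% and 14.4% of all genes called. The list's medians were -0.0007, 0.05 and -0.41. At D28 5 rose and 2 fell at 3 months, 1 rose and 0 fell at 9 months, and 2 rose and 1 fell at 18 months, beside 6.32%, 2.12% and 4.12% of all genes called. Cd300lf, an inhibitory receptor that binds phosphatidylserine, rose at all 3 ages (3.58, 4.76 and 3.48) and was still higher at D28 (3.20, 3.71 and 2.91). Mfge8, a secreted bridge between phosphatidylserine and integrins, fell (-1.64, -2.02 and -1.41), as did Itgb3, the beta subunit of an integrin that binds it (-2.31, -2.59 and -2.16), while Itgav, the alpha subunit, stood at -0.24, -0.01 and -0.41 and was not called. These lists were drawn up with earlier results of the same libraries known, and their counts are descriptions.

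**Figure D5:**
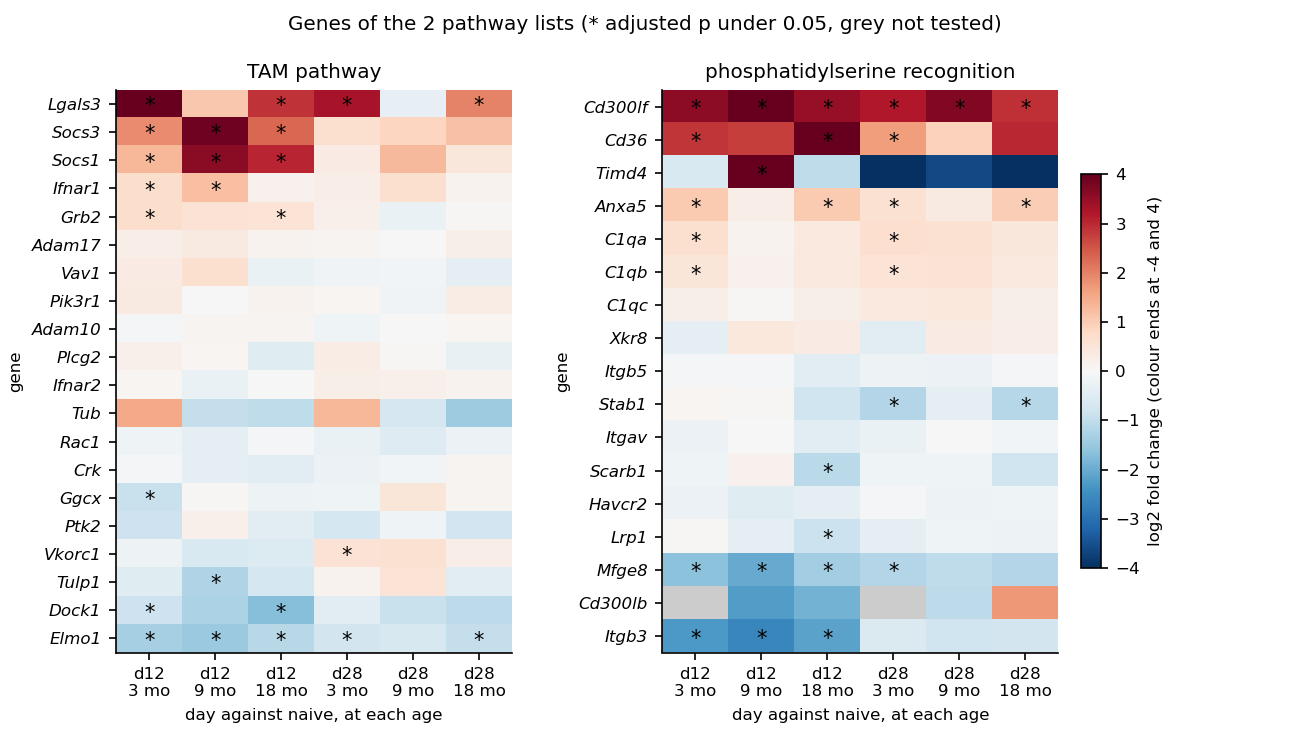
Log2 fold change against naive (color, red higher and blue lower, scale ending at -4 and 4) for genes of the TAM pathway (left) and of phosphatidylserine recognition (right) in rows, with D12 and D28 at 3, 9 and 18 months in columns. Asterisks mark an adjusted p under 0.05 and gray marks genes not tested. Socs1, Socs3 and Cd300lf are red and Elmo1, Mfge8 and Itgb3 blue at D12 at all 3 ages.

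The pattern over the 18 groups was compared between each member and 7903 genes with a mean of at least 10 CPM, by Pearson's r of the group means of log2 CPM, as a description. The genes most like Axl were Gng12 (r = 0.98), a G protein gamma subunit, Ikbke (r = 0.97), a kinase of the interferon and NF-kappaB pathways, and Lgals3bp (r = 0.97), a secreted glycoprotein that binds galectin. For Mertk they included Pan3 and Tgfbr2, a receptor of transforming growth factor beta, with r of 0.87 and 0.86. For Gas6 the closest were Reps1, Eif4h and Gmcl1 (0.82, 0.81 and 0.81), and for Pros1 Mtfr1l, Drg1 and Slbp (0.94, 0.93 and 0.92). Ranked by Spearman's rho in place of r, Lgals3bp stood at rank 4 and Gng12 at rank 50 for Axl, and Pan3 and Tgfbr2 at ranks 2 and 3 for Mertk. Between members r was -0.66 for Axl and Pros1, 0.20 for Mertk and Gas6, 0.18 for Gas6 and Pros1 and -0.07 for Axl and Mertk, over 18 group means that share library depth and collection day.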

How the data were processed

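Sorted microglia of single retinas were made into SMART-Seq libraries by the authors, sequenced single-end, aligned with STAR 2.7.8a to mm10 (GRCm38) and counted per gene with featureCounts. The deposited values were raw counts and counts from which the authors had removed the collection day with ComBat_seq; both hold whole reads per gene, and the corrected ones were used. The corrected table held 63 of 64 libraries. Another was left out by rule, and these 2 alone went against their labelled sex. Replicates are libraries of single retinas, and per the methods the contralateral eyes went to other assays, so each library stands for 1 animal. Counts were scaled by TMM, filtered by filterByExpr and tested in edgeR 4.0.16 (R 4.3.3) with quasi-likelihood fits checked on simulated data, with DESeq2 1.42.0 as an alternative. Thresholds were an adjusted p of 0.05 against naive and 0.1 for ages and interactions. The test within 1 sex was against a log2 change of 1, and CPM used the TMM-scaled totals. Log2 values for likeness used a prior count of 2. Intervals of 95% used the residual degrees of freedom of each age. Named genes were the members, Tyro3 and the 3 genes most like each member. List genes called in the same direction at D12 at all 3 ages (at most 6 per list) were named too, as were 1 or 2 markers. Other list genes and the endothelial markers were named after their values were seen. The members and lists were chosen with earlier results of these data known. A gene of the TAM pathway list and one of those most like Mertk are counted but not reported here by name.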

Additional observations from a re-analysis of the deposited data

Results flagged for a closer look

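In 36 tests of single libraries, 9 groups of 4 for each of the 4 genes, 4 values lay far from the other 3 of their group, where chance alone gives about 1 in 20. Mertk was 258 CPM in replicate 2 of the 9-month males at D12, against 160 to 165 CPM in the others, and this library also held the least Axl of its group. Gas6 was 138 CPM in replicate 4 of the naive 3-month females, against 71.7 to 80.8 CPM, and it is 1 of the 4 libraries that lay apart from their labelled collection day. Gas6 was 183 CPM in replicate 1 of the 9-month males at D12, against 44.7 to 62.6 CPM. Pros1 was 216 CPM in replicate 1 of the 3-month females at D12, against 311 to 326 CPM.

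In 2 libraries outside the comparisons Axl was above the naive range in uncorrected counts, where naive libraries reached from 26.9 to 187 CPM. It was 223 CPM in a library labelled 9-month male at D28 and 245 CPM in one labelled 18-month female at D28. Both libraries carried the transcripts of the other sex.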

How the results depend on the processing

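Over 400 alternative values of the comparisons in which a member was called, no change turned its sign. Most were refits without 1 library, which share nearly all their data, and differences within 1 collection day were among them. Of 24 tests against naive with the sexes averaged 8 were called, 5 in uncorrected counts without a collection-day term and 2 in a test against a log2 change of 1. In that last test the values were unchanged and the calls lost for Axl at D28 (1.30, 1.46 and 1.28 at 3, 9 and 18 months), Axl at 18 months at D12 (1.62) and Pros1 at D12 at 3 and 9 months (-0.79 and -0.88). In uncorrected counts without a term the calls of Axl at 9 months at D28 (1.42) and of Pros1 at D12 (-0.64 at 3 and -0.65 at 9 months) were lost. With DESeq2 size factors Pros1 at 9 months at D12 was -0.84 and no longer called. DESeq2 called Gas6 at 3 months at D28 (-0.52), and with no filter on low counts Pros1 at 3 months at D28 (-0.49) and Gas6 at 9 months at D28 (-0.94) were called. Gas6 at 9 months at D12 turned to 0.0149 with DESeq2, 0.0135 with its size factors and 0.0378 in uncorrected counts.

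Alternatives added after seeing the data concerned the 4 libraries that lay apart from their collection day. Without them Gas6 at D12 was 0.0567, 0.38 and -0.93 at 3, 9 and 18 months, the last now called, Mertk at 18 months at D12 was -0.65 and called, and Pros1 at 9 months at D12 was -0.49 and no longer called. Counting them with the first day in uncorrected counts with a collection-day term gave 0.0214, 0.26 and -0.98 for Gas6, the last now called, -0.57 for Mertk at 18 months, also called, and for Pros1 -0.60 at 9 months, no longer called, and -0.0148 at 18 months. Within the first collection day the differences at D12 were 1.06 for Axl and -1.43 for Gas6 at 18 months and -0.26 for Pros1 at 9 months, and at D28 1.01 for Mertk at 9 months and -1.49 for Gas6 at 18 months, which was 0.58 within the second. The cause of these shifts was not tested.

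Replicate numbers did not pair the libraries: the deviations of same-numbered libraries had a mean correlation of -0.0267 (135 pairs) against 0.00915 for the others (398 pairs), and 21 of 62 libraries lay closest to their own number. With the replicate block 7 tests against naive were called; Pros1 at 9 months at D12 was -0.82 and no longer called, Gas6 there was 0.0554, and the block changed no other call against naive.

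Within 1 sex, 10 in place of 4 member tests were called by the plain test with a log2 change over 1, and 10 with no minimum fold. For age with the sexes averaged, 1 fit over all libraries called 0 in place of 1. For 18 against 3 months within 1 sex, 0 were called, against 2 by DESeq2, 3 with no filter and 1 each with the library of conflicting labels placed at day 12, without the 4 libraries or with only the 2 groups in the fit. For age by day, 0 were called, against 2 by DESeq2, 2 with no filter and 1 without the 4 libraries.

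Leaving out 1 library at a time, the log2 change at D12 ranged from -0.12 to 0.10 for Mertk and -0.18 to 0.0567 for Gas6 at 3 months, from -0.27 to 0.20 for Mertk, -0.37 to 0.38 for Gas6 and -1.11 to -0.49 for Pros1 at 9 months, the last losing its call in 13 of 19 refits, and from -0.65 to -0.31 for Mertk and -0.93 to -0.33 for Gas6 at 18 months. At D28 it ranged from -0.60 to -0.38 for Gas6 at 3 months, 1.26 to 1.72 for Axl and -1.21 to -0.56 for Gas6 at 9 months, and -0.10 to 0.0686 for Mertk and -0.44 to 0.17 for Gas6 at 18 months. The count for 18 against 3 months within 1 sex ranged from 0 to 2. Of the age-by-day tests only the difference of 18 from 3 months at D12 was refitted in this way. Among 118 other member comparisons, none of them called, 3129 refits turned 141 signs and made 3 calls. For levels under 3 counts, 0.361 to 2.12 CPM, the depth allowed no statement.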
